A study of Mus musculus with 8 samples.

Results

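NF-κB subunits and IκB proteins were followed across Th17 cells expressing either of 2 forms of ROR-γt, the transcription factor that drives the Th17 program. The 10 genes are Nfkb1, Nfkb2, Rel, Rela and Relb, which encode the 5 NF-κB subunits, and Nfkbia, Nfkbib, Nfkbie, Nfkbiz and Nfkbid, which encode 5 IκB proteins. They were selected by symbol, and all 10 were found among the 22829 genes listed. RNA seq measured their transcripts in 8 samples, 4 with WT-ROR-γt and 4 with K187R-ROR-γt, a mutant that cannot be SUMOylated because the lysine that carries SUMO is replaced by arginine. All samples came from ROR-γt-/- mice, so no sample had its own ROR-γt. CD4+ T cells were purified from spleen with magnetic beads, given 1 of the forms by lentivirus and differentiated under Th17-inducing conditions. The samples therefore hold cells expressing an introduced gene, and the ages of the mice are not given in the sources used here. The labels number the samples of each group as replicates 1 to 4 but do not say that they came from separate animals or cultures. The series' description speaks of mice, 4 per group, while the methods describe transduced cells. P-values therefore measure the spread between these samples, and how much of it is technical was not tested. Each group held samples with high and samples with low Xist, a transcript of female cells, as given below.

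NF-κB factors act as dimers. In resting cells the IκB proteins IκBα, IκBβ and IκBε hold the dimers in the cytoplasm, and the IKK complex marks these inhibitors for degradation after a signal, which frees the dimers to enter the nucleus. Nfkb1 and Nfkb2 encode the precursors p105 and p100, which are cut to the subunits p50 and p52. IκBζ and IκBNS, encoded by Nfkbiz and Nfkbid, act inside the nucleus as partners of DNA-bound subunits. In T cells, antigen receptor and costimulatory signals reach IKK through the kinase PKCθ, and c-Rel, RelA and IκBζ are known to take part in Th17 differentiation. Several of these genes are NF-κB targets themselves, so that the pathway limits its own activity.

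The samples had 52456804 to 74676721 reads on genes. Values are given as normalized counts, the reads of a gene divided by 1 size factor per sample, and 3 reads, taken as the smallest detectable count, correspond to 2.54 to 3.56 normalized counts. Markers of T cells were high in every sample (Cd3e, 20844 to 27404; Cd4, 15147 to 20882). Myeloid markers were also present, and the sum of the 10 on the list, led by Lyz2, was 23199 to 67581 in WT and 38721 to 70354 in K187R, with 0 of the 10 under 10 normalized counts on average. The sum of 8 B cell markers, led by Ighm, was 10934 to 14991 in WT and 10703 to 17460 in K187R, and that of 8 markers of NK and CD8 T cells was 1905 to 3278 over both groups, with Ncr1 at 0 to 9.48. The log2 difference K187R minus WT was positive for all 10 myeloid markers (median 0.44) and all 8 B cell markers (median 0.33), beside 48.4% of all genes tested, and 0 of these 18 passed the test in limma. It was also positive for 9 of 10 T cell markers (median 0.09), and for 3 of the 7 NK and CD8 T cell markers tested (median -0.0093). Clustering over 16874 genes outside the lists used here placed the samples in 3 sets, a number that was fixed as a setting and not found from the data. Set 1 consisted of WT replicates 1 and 3 and K187R replicate 1, set 2 of K187R replicates 2 and 3 and WT replicate 2, and set 3 of replicate 4 of either group. Xist, expressed from the inactive X chromosome of female cells, was at 13564 to 17373 normalized counts in set 2 and at 3.56 to 23.7 in the other samples. The summed myeloid markers were lowest in set 1 and highest in set 3, but single markers differed in this. Lyz2, Itgam, Fcgr3, Tyrobp and Cd68 were highest in the samples of set 3. Csf1r, Itgax and Cd14 were highest in those of set 2, with Csf1r at 4220 to 5074 there and 2423 to 2598 in set 3. The part of the myeloid markers in the levels given below was not tested.

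The promoters of the genes were compared with the NF-κB consensus, a 10-base motif, because several of them are known targets of the pathway. RefSeq promoters of GRCm38.p6 were at hand for 7 of the 10 genes. In the 250 bases before a start, read on both strands, the consensus was found for 5 of these 7, namely Nfkb2, Rel, Nfkbia, Nfkbie and Nfkbid, a share of 71.4% against 8.23% of 27025 genes searched in the same way. A gene counted if any of its windows held a match. The 7 genes had 11 windows and the 27025 genes 32851, so the number of windows per gene was not alike. The consensus was not found for Rela or Nfkbib, which says only that these letters are not in these windows. A match is a description of the sequence and not a measured binding site. The sequences below are given on the strand of the gene, up to the base before the annotated exon. Capitals mark the matches, which overlap in Rel and, in Nfkbia and the second match of Nfkbid, lie on the other strand. They are chr12:55492648-55492897 (minus strand) for Nfkbia, chr11:23770971-23771219 (minus strand) for Rel, chr17:45555450-45555699 (plus strand) for Nfkbie, chr7:30422156-30422405 (plus strand) for the start of Nfkbid that held matches, and chr19:5637291-5637482 (plus strand) for Rela, shown as a subunit promoter without a match.
Nfkbia: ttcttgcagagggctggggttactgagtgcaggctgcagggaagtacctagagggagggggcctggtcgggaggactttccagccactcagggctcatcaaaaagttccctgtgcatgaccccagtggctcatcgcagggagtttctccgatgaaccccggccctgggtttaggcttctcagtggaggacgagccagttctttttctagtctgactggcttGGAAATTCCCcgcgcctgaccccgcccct
Rel: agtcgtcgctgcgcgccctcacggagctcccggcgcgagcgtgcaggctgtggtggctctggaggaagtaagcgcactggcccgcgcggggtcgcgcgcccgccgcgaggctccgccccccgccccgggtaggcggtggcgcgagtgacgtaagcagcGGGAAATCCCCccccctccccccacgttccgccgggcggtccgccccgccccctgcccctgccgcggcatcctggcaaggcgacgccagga
Nfkbie: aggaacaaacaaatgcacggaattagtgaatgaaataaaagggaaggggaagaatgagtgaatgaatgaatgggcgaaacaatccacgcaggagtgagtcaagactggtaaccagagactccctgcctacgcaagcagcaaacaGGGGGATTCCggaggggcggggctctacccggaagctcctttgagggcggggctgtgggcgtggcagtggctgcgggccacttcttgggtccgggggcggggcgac
Nfkbid: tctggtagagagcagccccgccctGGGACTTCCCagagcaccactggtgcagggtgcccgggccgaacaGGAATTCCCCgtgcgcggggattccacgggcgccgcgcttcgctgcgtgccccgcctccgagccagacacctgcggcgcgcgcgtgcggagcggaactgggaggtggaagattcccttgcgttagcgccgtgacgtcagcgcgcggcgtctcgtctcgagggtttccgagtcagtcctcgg
Rela: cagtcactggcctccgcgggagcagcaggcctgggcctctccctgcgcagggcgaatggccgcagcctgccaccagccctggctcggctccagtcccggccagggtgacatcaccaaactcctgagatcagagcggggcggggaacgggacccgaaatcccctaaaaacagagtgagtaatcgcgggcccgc

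The match of Nfkbia lay 29 to 20 bases before its start and read GGGAATTTCC on the strand opposite to the gene. Those of Rel fell between 92 and 82 bases before the start, and that of Nfkbie between 106 and 97. Nfkbid had matches at 226 to 217 and at 181 to 172 bases before 1 of its 3 starts and none before the other 2. For Nfkb2 each of 3 starts had a match, but these windows overlap annotated exons. Before its first start the palindrome GGGAATTCCC stood at 39 to 30 bases and GGGGCTTTCC at 11 to 2 bases.

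The question put to these genes was whether their transcripts differed between cells expressing the 2 forms of ROR-γt. They did not pass the test in either direction. In limma, run on all 16982 genes that averaged 10 or more normalized counts, 0 of the 10 genes had an adjusted p-value under 0.05, as did 0% of all genes tested. At an unadjusted p under 0.05 the numbers were 0 of 10 and 4.39%, or 746 genes. Leaving out 1 sample moved the 746 to between 329, without WT replicate 1, and 2181, without WT replicate 4. The 0 of 10 became 1 of 10 without K187R replicate 4, the gene being Nfkbie, beside 1066 of all 16982 genes tested. The count was also 1 of 10 without the 3 samples of set 2, the gene being Nfkbid, beside 341 of all genes tested. DESeq2 called 0 of 10 against 0.183% of all genes tested, and edgeR called 0 of 10 and 0 genes in all. With the sample sets described above as a factor in limma, 0 of 10 had an unadjusted p under 0.05 against 8.21% of all genes tested. The 2 groups overlapped for all 10 genes, where they did not overlap for 2.46% of all genes tested. The log2 fold change, computed as K187R minus WT from the means of log2(normalized count + 1), was positive for 7 of the genes and negative for 3. Its median was 0.05 over the 10 and -0.0062 over all genes tested. The 95% confidence interval of the fold change lay within 1.5-fold in both directions for 9 of the 10 genes, Nfkbie being the exception. In bulk samples a change in the number of cells that express a gene cannot be told apart from a change in RNA per cell.

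**Figure D1:**
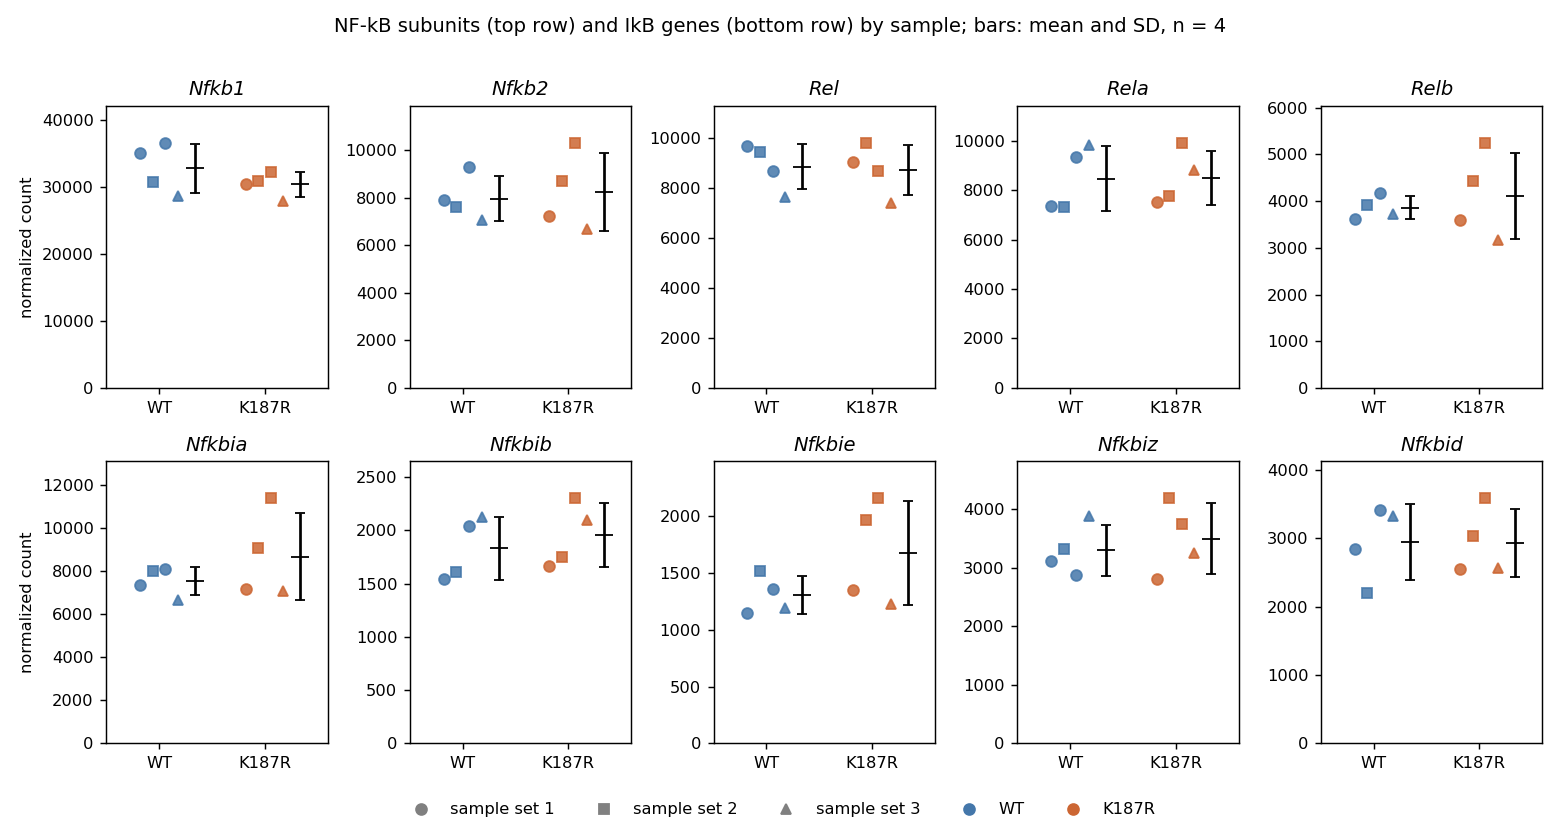
Normalized counts (y axis, from 0) of the 10 genes in WT and K187R samples, with subunits in the top row and IκB genes in the bottom row. Each point is a sample, its shape gives the sample set, and bars show the mean and SD of 4 samples; the 2 groups overlap in every panel, and the highest point is a square of set 2 in K187R for 9 of the 10 genes.

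Nfkb1, which encodes p105 and p50, had the highest count of the 10 genes. Nfkb1 (ENSMUSG00000028163, chromosome 3 of GRCm38, 135584655 to 135691547, minus strand) had 35182, 30714, 36652 and 28727 normalized counts in WT replicates 1 to 4 and 30556, 30901, 32309.6 and 27906 in K187R replicates 1 to 4. The 2 highest values were those of WT replicates 1 and 3, both of set 1, and the lowest were the 2 samples of set 3. The means were 32819 ± 3717 (SD, n = 4) for WT and 30418 ± 1838 (SD, n = 4) for K187R. The log2 fold change was -0.10 (standard error, SE, 0.0928, limma adjusted p = 0.922), the most negative of the 10, and the interval of the fold change ran from 0.805 to 1.07.

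Rela encodes RelA, also called p65, the subunit with the main activation domain of the classical pathway. Rela (ENSMUSG00000024927, chromosome 19, 5637483 to 5648130, plus strand) had 7358, 7327, 9354 and 9808 normalized counts in WT and 7524, 7755, 9914 and 8813 in K187R, in the order of the replicates. In both groups replicates 3 and 4 were above replicates 1 and 2. The means were 8462 ± 1306 (SD, n = 4) and 8501 ± 1096 (SD, n = 4), a log2 fold change of 0.01 (SE 0.127, limma adjusted p = 0.993). The interval of the fold change was 0.827 to 1.23.

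Rel encodes c-Rel, a subunit found mainly in lymphoid and myeloid cells. Rel (ENSMUSG00000020275, chromosome 11, 23736847 to 23770970, minus strand) had 9656, 9413, 8657 and 7635 normalized counts in WT and 9009, 9792, 8668 and 7402 in K187R. The order of samples was opposite to that of Rela, with replicates 1 and 2 above replicates 3 and 4 in each group. The difference between groups was small beside this spread, with means of 8840.1 ± 909 (SD, n = 4) and 8718 ± 995 (SD, n = 4) and a log2 fold change of -0.02 (SE 0.105, limma adjusted p = 0.984). For Rel, 81.0% of the sum of squares over the 8 samples lay between the 3 sets and 0.588% between the groups.

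Nfkb2 and Relb encode p100/p52 and RelB, which pair in the alternative pathway. Nfkb2 (ENSMUSG00000025225, chromosome 19, 46304320 to 46312385, plus strand) had 7903, 7607, 9282 and 7083 normalized counts in WT and 7245, 8724, 10322 and 6698 in K187R. Its K187R samples reached both above and below those of WT. The means were 7969 ± 939 (SD, n = 4) and 8247 ± 1626 (SD, n = 4), with a log2 fold change of 0.04 (SE 0.140, limma adjusted p = 0.979). Of the exonic bases of Nfkb2, 18.1% overlap AC114539.1 or Psd on the opposite strand, and it is not stated whether the counting used the strand, so reads of these genes cannot be told apart there.

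Relb (ENSMUSG00000002983, chromosome 7, 19606217 to 19629438, minus strand) had 3608, 3911, 4176 and 3727 normalized counts in WT and 3595, 4422, 5249.9 and 3176 in K187R. All K187R values fell outside the narrow range of WT, K187R replicates 2 and 3 above it and K187R replicates 1 and 4 below it, replicate 1 by a small margin. The means of 3855 ± 248 (SD, n = 4) and 4111 ± 919 (SD, n = 4) gave a log2 fold change of 0.07 (SE 0.144, limma adjusted p = 0.959). Whether the spread itself differed between the groups was not tested.

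Nfkbia encodes IκBα, the inhibitor that is rapidly resynthesised after NF-κB activation. Nfkbia (ENSMUSG00000021025, chromosome 12, 55489410 to 55492647, minus strand) had 7358, 8005, 8117 and 6682 normalized counts in WT and 7186, 9062, 11392 and 7061 in K187R. K187R replicates 2 and 3 were above all WT samples, while K187R replicates 1 and 4 lay within the range of WT. The means were 7540.3 ± 663 (SD, n = 4) and 8675 ± 2029 (SD, n = 4), and the log2 fold change was 0.18 (SE 0.150, limma adjusted p = 0.921). Without K187R replicate 3 the log2 fold change of Nfkbia was 0.038.

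Nfkbie, which encodes IκBε, an inhibitor of RelA and c-Rel dimers, had the most positive difference of the 10 genes. Nfkbie (ENSMUSG00000023947, chromosome 17, 45555703 to 45563169, plus strand) had 1150.2, 1522, 1359.9 and 1196 normalized counts in WT and 1353, 1969.7, 2160.4 and 1226 in K187R. As for Nfkbia, K187R replicates 2 and 3 exceeded every WT sample and K187R replicates 1 and 4 did not. The means were 1307 ± 169 (SD, n = 4) and 1677 ± 457 (SD, n = 4). The log2 fold change was 0.33 (SE 0.188), a fold change of 1.25 with an interval from 0.937 to 1.68, and it did not pass the test (adjusted p = 0.921 in limma and 0.893 in DESeq2). An exact two-sided permutation of the 8 samples gave p = 0.229, where 0.0286 is the smallest that 4 against 4 allow. K187R was higher than WT in 4 of 4 comparisons of samples with the same replicate number, by 0.23, 0.37, 0.67 and 0.04 on the log2 scale for replicates 1 to 4. The 2 replicates 3, which gave the 0.67, belong to different sample sets, and the labels do not say that equal numbers mark paired samples.

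Nfkbib encodes IκBβ, the third of the cytoplasmic inhibitors. Nfkbib (ENSMUSG00000030595, chromosome 7, 28758251 to 28767512, minus strand) had 1541, 1606, 2043 and 2129 normalized counts in WT and 1667, 1751, 2302 and 2101 in K187R. Replicates 3 and 4 were above replicates 1 and 2 in both groups, as for Rela. The means were 1829.9 ± 299 (SD, n = 4) and 1955 ± 298 (SD, n = 4), with a log2 fold change of 0.10 (SE 0.143, limma adjusted p = 0.935), which fell to 0.015 without K187R replicate 3. Of its exonic bases, 16.4% overlap Ccer2 or Sirt2 on the opposite strand.

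The genes of the nuclear IκB proteins did not pass the test either. Nfkbiz (ENSMUSG00000035356, chromosome 16, 55811375 to 55838899, minus strand) had 3116, 3318, 2873 and 3887 normalized counts in WT and 2804, 4189, 3752 and 3248 in K187R. Its highest value was that of K187R replicate 2 and its lowest that of K187R replicate 1, so that the K187R samples spanned all those of WT. The log2 fold change of Nfkbiz was 0.08 (SE 0.137, limma adjusted p = 0.950). Nfkbid (ENSMUSG00000036931, chromosome 7, 30421732 to 30428746, plus strand) had 2846, 2204, 3411 and 3324 normalized counts in WT and 2546, 3029, 3589.8 and 2565 in K187R. The means of Nfkbid were almost equal, 2946 ± 553 (SD, n = 4) and 2933 ± 492 (SD, n = 4), with a log2 fold change of -0.00046 (SE 0.160, limma adjusted p = 0.999). The interval of its fold change was 0.780 to 1.28, so the samples leave room for a change of either sign within these bounds. Without the 3 samples of set 2, the log2 fold change of Nfkbid was -0.32, with an unadjusted p under 0.05 in limma.

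The differences between groups were next taken within the sample sets, since each set holds samples of both groups. In set 2, K187R exceeded WT for 9 of the 10 genes, by 0.58 on the log2 scale for Nfkbid, 0.44 for Nfkbie, 0.34 for Nfkbia and 0.32 for Nfkb2 and Nfkbib, Rel being the exception at -0.03. In set 1, K187R was below WT for 9 of the 10 genes, from -0.29 for Nfkbid and -0.24 for Nfkb2 to -0.02 for Rel, and Nfkbie was at 0.11. In set 3, with 1 sample of each group, K187R was below WT for 8 of the 10 genes, Nfkbia at 0.08 and Nfkbie at 0.04 being the others. The shares of all genes tested that were higher or lower within each set were not computed. Some of the 10 genes also followed one another closely over the samples, so these counts are not 10 separate observations. WT replicate 2 is the only WT sample of set 2, so every difference within this set rests on it. In the same way, every difference within set 1 rests on K187R replicate 1, its only K187R sample. Without the 3 samples of set 2, 6 of the 7 positive differences over all samples turned negative, and Nfkbie was at 0.064. An exact permutation within sets, over 18 regroupings with 0.0556 as the smallest p possible, gave p between 0.167 for Nfkbie and 1 for Nfkb2 and Rela. Nfkbie was the 1 gene whose difference was positive in all 3 sets.

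**Figure D2:**
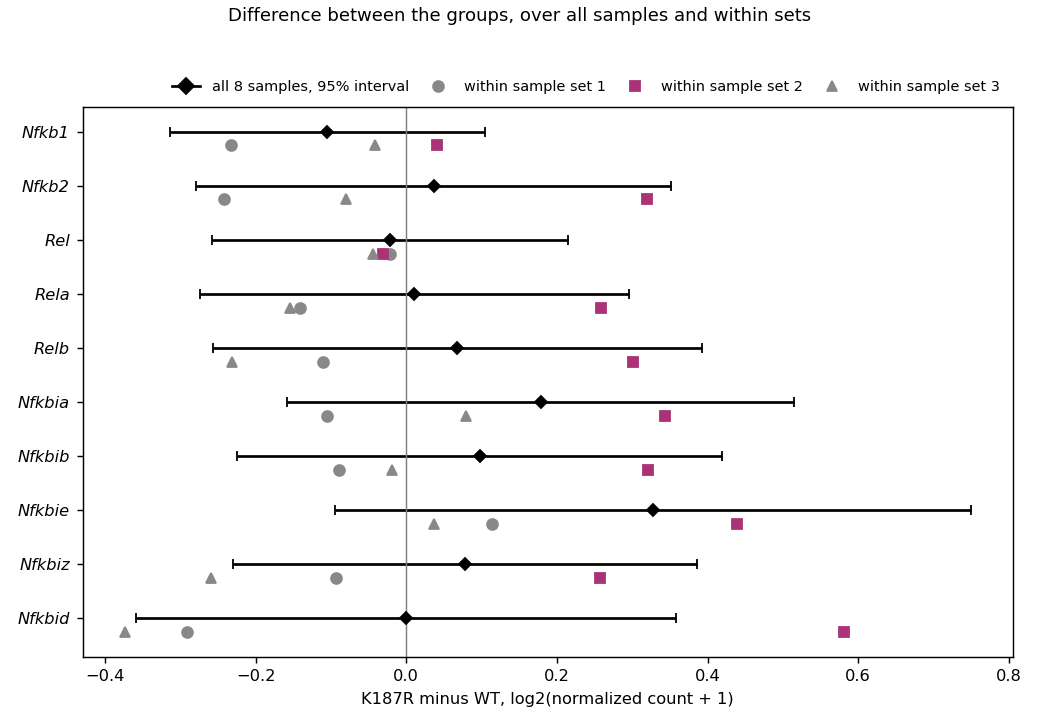
Difference K187R minus WT in log2(normalized count + 1) (x axis) for each of the 10 genes (y axis). Diamonds with bars give all 8 samples with the 95% interval from limma, and the other symbols give the difference within each sample set. Every interval crosses 0. Within set 2, where WT replicate 2 is the only WT sample, the difference was positive for 9 genes. Within set 1, where K187R replicate 1 is the only K187R sample, it was negative for 9.

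The same few samples often held the highest or the lowest value. A Dixon check for outliers within each group, over the 10 genes and the ratios below, passed its critical value in 0 of 30 cases. K187R replicate 3 had the highest value of 7 of the 10 genes, K187R replicate 2 that of Rel and Nfkbiz, and WT replicate 3 that of Nfkb1. K187R replicate 4 had the lowest value of 4 of the genes, Nfkb1, Nfkb2, Rel and Relb. The highest sample exceeded the lowest by 1.31-fold for Nfkb1 and by up to 1.88-fold for Nfkbie. For all 10 genes the share of the sum of squares between the sets was above that between the groups. The median over the 10 was 60.6% between sets and 3.31% between groups, beside 51.6% and 9.11% over all genes tested. The shares differed widely, from 81.0% between sets for Rel and 78.0% for Nfkbie to 22.9% for Rela and 0.119% for Nfkbid. A factor of 3 levels takes up more of the sum of squares than 1 of 2 levels by its number of levels alone. The sets were also found by clustering these same samples on 16874 genes, which by itself raises the share between sets. The groups come from the labels. That the share between sets exceeds that between groups is therefore not a result about these 10 genes. The values over all genes are the measure to set the shares against.

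**Figure D3:**
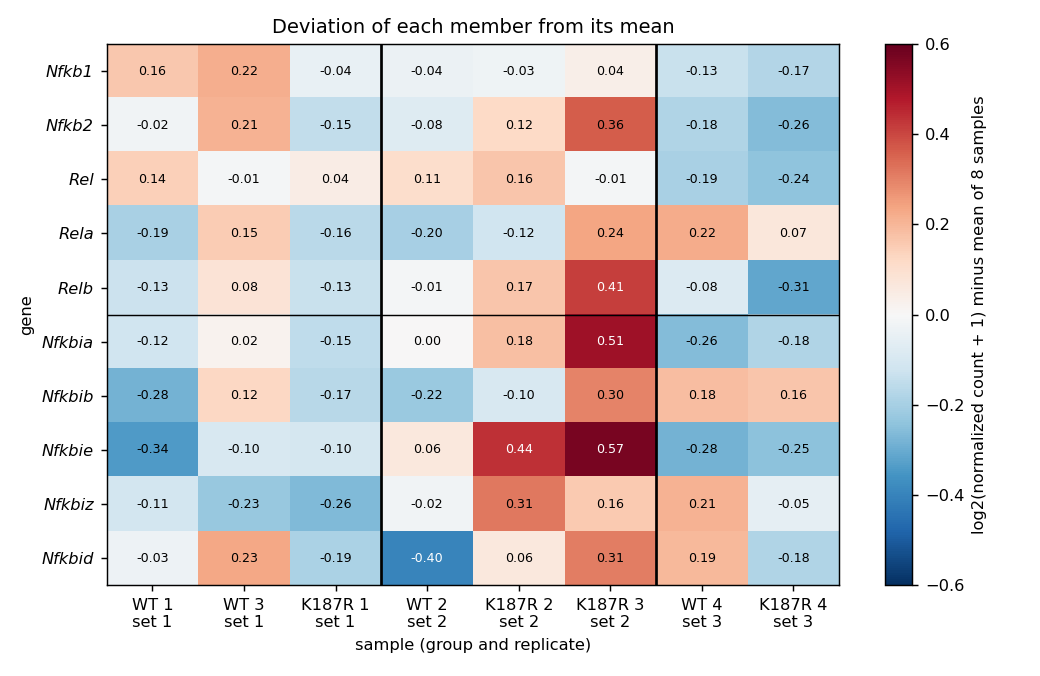
Deviation of each gene (rows) in each sample (columns, ordered by sample set) from its mean over the 8 samples, on the scale of log2(normalized count + 1). Red is above and blue below the mean; Nfkbia and Nfkbie reach 0.51 and 0.57 in K187R replicate 3, and Nfkbid is at -0.40 in WT replicate 2.

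Among the 1000 genes tested with the nearest mean, 90.0% had a smaller SD over the samples than Nfkbie, 88.9% than Nfkbia and 88.1% than Nfkbid, whereas the share was 46.1% for Nfkb1 and 54.2% for Rel. Nfkb2 and Relb lay between these, at 80.2% and 83.2%.

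Ratios between pairs of genes in the same sample do not depend on the size factor, and 5 ratios were compared, with p-values from exact two-sided permutations that are not adjusted. Nfkb2 over Nfkb1, the 2 precursor genes, had log2 ratios of -2.15, -2.01, -1.98 and -2.02 in WT and -2.08, -1.82, -1.65 and -2.06 in K187R, a difference of 0.14 (exact permutation p = 0.286) that fell to 0.056 without K187R replicate 3. The K187R samples of set 2 had the highest ratios. Relb over Rela was at -1.40 to -0.91 in WT and -1.47 to -0.81 in K187R, with a difference of 0.06 (exact permutation p = 0.743). Within this ratio the 3 samples of set 2 were the highest and the 2 of set 3 the lowest. Nfkbia over Rela was at -0.55 to 0.13 in WT and at -0.32 to 0.22 in K187R, a difference of 0.17 (exact permutation p = 0.429), and again set 2 held the 3 highest samples. Without WT replicate 4 this difference was 0.035. Nfkbiz over Nfkbia was at -1.50 to -0.78 in WT and at -1.60 to -1.11 in K187R, a difference of -0.10 (exact permutation p = 0.686).

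Rel over Rela had log2 ratios of 0.39, 0.36, -0.11 and -0.36 in WT and 0.26, 0.34, -0.19 and -0.25 in K187R. The difference between groups was -0.03 (exact permutation p = 0.857). The ratio takes no account of length, and the longest coding transcripts have 7466 bases for Rel and 2716 for Rela. A ratio above 0 therefore does not mean a higher level of Rel. Per kilobase of these transcripts, Rela was above Rel in every sample. In both groups the ratio was above 0 in replicates 1 and 2 and below 0 in replicates 3 and 4, a split by replicate number that crosses sets 1 and 2. This split was noticed after the values were seen and was not tested, and the labels do not say what the numbers share.

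**Figure D4:**
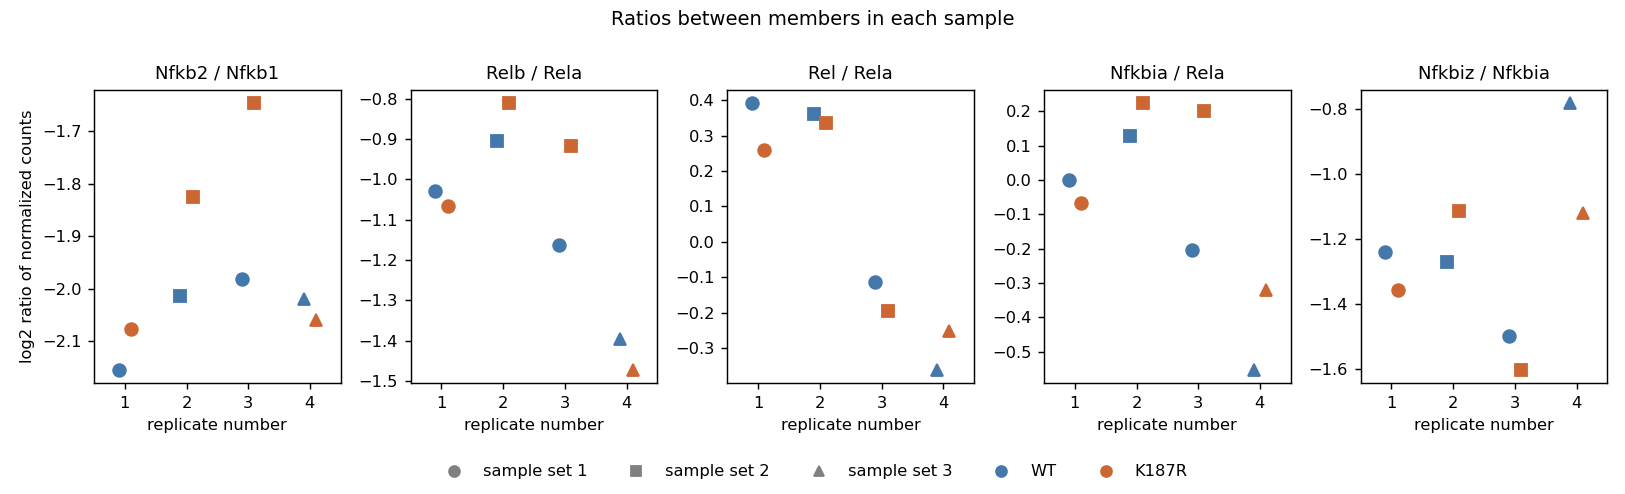
Log2 ratio of normalized counts (y axis, 1 scale per panel) of 5 pairs of genes in each sample, by replicate number (x axis) and coloured by group. Rel over Rela lies between 0.26 and 0.39 in replicates 1 and 2 and between -0.36 and -0.11 in replicates 3 and 4 of both groups, and Relb over Rela is highest in the squares of set 2.

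Levels of different genes were compared per kilobase of the longest coding transcript. Nfkb1 had 7680.0 normalized counts per kilobase on average, Nfkbia 5138, Rela 3123, Nfkb2 2108, Relb 1803, Nfkbid 1442, Rel 1176, Nfkbib 918, Nfkbiz 826 and Nfkbie 613. The ranges over the 8 samples of neighbours in this order overlapped except between Nfkbia and Rela and between Rela and Nfkb2. Within every one of the 8 samples, however, Nfkb1 was above Nfkbia, Nfkb2 above Relb, Relb above Nfkbid and Nfkbiz above Nfkbie. Nfkbia had the highest level of the 5 IκB genes and Nfkbie the lowest. The place of Nfkb1 depends on the length used, since its merged exons span 12061 bases and its longest coding transcript 4117 bases. Per kilobase of merged exons Nfkbia came first with 5036, followed by Rela with 2761 and Nfkb1 with 2622. By that measure 97.2% of all genes tested were below Nfkbia and 63.9% below Nfkbie.

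Within the 5 subunits, Nfkb1 made up 49.5% ± 2.70 (SD, n = 4) of the level per kilobase of the longest coding transcript in WT and 47.2% ± 2.27 (SD, n = 4) in K187R. Rela followed with 19.4% ± 3.15 (SD, n = 4) and 20.0% ± 2.23 (SD, n = 4). Nfkb2 had 12.9% and 13.6%, Relb 10.9% and 11.8%, and Rel 7.39% and 7.46% in WT and K187R. The ranges of the 2 groups overlapped for each of the 5. These shares depend on the length used. Per kilobase of merged exons, a measure added after the data were seen, Nfkb1 made up 29.0% ± 2.20 (SD, n = 4) for WT and 27.2% ± 1.65 (SD, n = 4) for K187R, and Rela was the largest with 29.3% ± 4.12 (SD, n = 4) and 29.8% ± 3.13 (SD, n = 4).

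**Figure D5:**
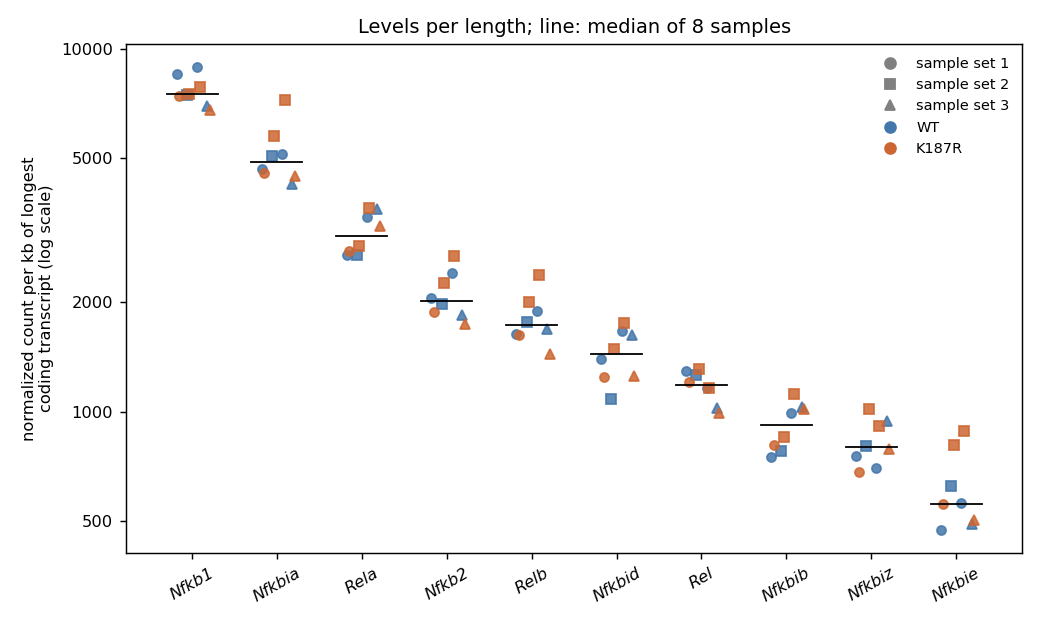
Normalized counts per kilobase of the longest coding transcript (y axis, log scale) of the 10 genes, ordered by their mean. Points are samples coloured by group and shaped by sample set, and lines are medians of 8 samples; Nfkb1, Nfkbia and Rela stand above the other genes in every sample.

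Genes upstream and downstream of the subunits were described by lists chosen for their roles. Of the 6 genes of the IKK complex and related kinases, 0 passed the test in limma and 4 had positive differences. Map3k14, the NIK kinase of the alternative pathway, had 2772 to 3673 normalized counts in WT and 3305 to 4278 in K187R (log2 fold change 0.23, SE 0.109, limma adjusted p = 0.921). Ikbke had a log2 fold change of 0.26 and Ikbkb, the catalytic IKKβ subunit, one of 0.06. Of the 7 genes on the list that leads from the antigen receptor to IKK, 0 passed the test in limma. Prkcq, which encodes PKCθ, had 14287 to 15993 normalized counts in WT and 15677 to 17500.4 in K187R (log2 fold change 0.16, limma adjusted p = 0.921), and its groups overlapped.

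None of the other lists around the pathway held a gene that passed the test in limma, with 0 of 5 TRAF adaptors, 0 of 3 subunits of the linear ubiquitin ligase, 0 of 8 inhibitors of the signal, 0 of 3 other IκB-type genes and 0 of 18 target genes. Traf6 had a log2 fold change of -0.25 and Traf3, which holds NIK in check, one of 0.14. Rnf31 and Rbck1 of the ubiquitin ligase had 0.05 and 0.06. Among the inhibitors, Zc3h12a had 0.22, N4bp1 -0.13 and Tnfaip3, the deubiquitinase A20, -0.13. Bcl3, a nuclear IκB protein that binds p50 and p52, had 3397 to 5245 normalized counts in WT and 4112 to 6417 in K187R, with a log2 fold change of 0.15 (SE 0.175, limma adjusted p = 0.928), and like 7 of the 10 genes it was highest in K187R replicate 3. Ankrd42 was low, at 16.9 to 33.3 normalized counts, with a log2 fold change of -0.34.

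The median log2 fold change of the 18 target genes was 0.04, and 10 of them had positive differences. Ltb, which encodes lymphotoxin β, had 7304, 7752, 8924 and 8933 normalized counts in WT and 9654, 9346, 12337 and 9421 in K187R. It was the 1 gene of the list whose groups did not overlap, beside the 2.46% of all genes tested given above, and its log2 fold change was 0.30 (SE 0.110, adjusted p = 0.921 in limma and 0.576 in DESeq2). Tnf had 2227 to 2819 normalized counts in WT and 2219 to 4422 in K187R (log2 fold change 0.28, limma adjusted p = 0.921), and its 2 highest samples were K187R replicates 2 and 3, as for Nfkbia and Nfkbie. Bcl2a1d had a log2 fold change of 0.27. Of the 14 Th17 genes, 0 passed in limma, with Il1r1, a receptor that signals to NF-κB, at a log2 fold change of 0.88 (adjusted p = 0.344 in limma and 3.73e-05 in DESeq2) and Ccr6 at 1.02 (limma adjusted p = 0.921).

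The genes whose log2 values followed each of the 10 most closely over the 8 samples were taken from all 16982 tested, so each correlation is a selected maximum, and the samples share the sets described above. For Nfkb1 they were Pask, Ncapd2 and Foxm1 (r = 0.996, 0.996 and 0.993). For Rela they were Oxa1l, Zfp213 and Agpat1 (0.990, 0.985 and 0.982), for Rel Gm11847, Arid5b and Lbr (0.985, 0.981 and 0.976), for Nfkb2 Abcb9, Izumo1r and Gpr18 (0.975, 0.973 and 0.968) and for Relb Cacnb3, Tap1 and Fam102a (0.979, 0.978 and 0.972). For Nfkbia they were Psmb9, Pygb and H2-Oa (0.975, 0.967 and 0.963), for Nfkbie Batf3, B4galnt4 and Cxcr1 (0.989, 0.984 and 0.978), for Nfkbib Pygo2, Pfn1 and Slc25a11 (0.984, 0.983 and 0.983), for Nfkbiz Metap1d, Prpf38b and Tatdn3 (0.980, 0.966 and 0.963) and for Nfkbid Plcg1, Flii and Dlg4 (0.997, 0.983 and 0.969). No gene of the 10 was among the 3 closest of another, but some of the 10 followed one another closely. The highest correlations between them were 0.968 for Rela and Nfkbib, 0.927 for Nfkb2 and Relb and 0.925 for Nfkbia and Nfkbie. The lowest was -0.739, for Rel and Nfkbib.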

How the data were processed

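RNA seq of 8 samples was used, 4 per group, with the groups and replicate numbers taken from the labels. According to the methods and the submitters' processing notes, the authors trimmed reads with Cutadapt, aligned them to GRCm38 with HISAT2, assigned them to GENCODE M15 genes with featureCounts and used DESeq2. Versions and the use of strand are not given in the sources used here, and the library kit is named differently in the labels and the methods. Each deposited value is a signal, the reads of a gene divided by 1 size factor per sample. All of them (100%) were whole multiples of 1 read within 0.01 of a read, so reads were recovered by division. The size factors, 0.842 to 1.18, differed from those DESeq2 gives on the reads by a relative 9.7e-12 at most.

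The main test was limma (lmFit, eBayes with trend) on log2(normalized count + 1) over genes with a mean of at least 10, with Benjamini-Hochberg adjustment at 0.05 over all 16982. A fold change on this scale understates the change of low genes. Single genes and ratios were tested by exact permutation over 70 splits or within the sample sets. These sets came from average-linkage clustering, with the tree cut at 3 sets as a setting. Alternatives were quantile normalization, median centring, pseudocounts of 5 and 0.5, a minimum mean of 50 or none, no trend, edgeR and DESeq2 on the recovered reads, the replicate number as a block, the sample set as a factor, each sample left out, and the samples with high Xist left out. The steps were checked on simulated data. Of each list the 2 genes with the smallest p were named, plus Bcl3, Ikbkb, Map3k14, Tnfaip3 and Tnf whatever their values, and for likeness the 3 genes with the highest correlation to each of the 10. Some items the rule takes are not reported here. The genes and lists were chosen with earlier results of these data known. Gene positions and lengths are from GENCODE M21 on GRCm38, used in place of M15. Tests were run in R 4.3.3 with DESeq2 1.42.0, limma 3.58.1 and edgeR 4.0.16. Permutations and figures used scipy 1.17.1, matplotlib 3.10.9, pandas 2.3.3 and numpy 2.4.6 under Python 3.11.15. Depth was 52456804 to 74676721 reads per sample, the lowest value of the 10 genes was 1150.2 normalized counts, and the floor of 3 reads covers counting error only.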

Additional observations from a re-analysis of the deposited data

How the results depend on the processing

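Under all 20 alternatives 0 of the 10 genes were called. Over all genes tested the count of 0 in limma moved to 31 in DESeq2 (17 higher and 14 lower), to 1 with the sample set as a factor, and to between 0 and 4 when 1 sample was left out, with 4 without WT replicate 4. At an unadjusted p under 0.05, limma gave 746 genes and edgeR 729, also with 0 adjusted calls, and leaving out 1 sample moved the 746 to between 329 and 2181. Why these counts differ was not tested. The log2 fold changes of Nfkb1 and Nfkbie kept their sign under all 20, from -0.19 to -0.049 and from 0.064 to 0.46. Differences near 0 changed sign. Nfkbid was at 0.019 with quantile normalization and 0.0035 with the sample set as a factor, Nfkbiz at -0.011 with the sample set, and Rela at -0.011 with median centring. Without the 3 samples with high Xist, which leaves 3 WT and 2 K187R samples, Nfkbid was at -0.32 (unadjusted p under 0.05 in limma), Nfkb2 at -0.21, Nfkb1 -0.19, Relb -0.18, Rela -0.11, Nfkbiz -0.11, Rel -0.076, Nfkbia -0.048, Nfkbib -0.011 and Nfkbie 0.064, and the cause was not tested. With 1 sample left out, the ranges were -0.079 to 0.13 for Nfkb2, -0.090 to 0.055 for Rel, -0.066 to 0.086 for Rela, -0.059 to 0.18 for Relb, 0.038 to 0.27 for Nfkbia, 0.015 to 0.18 for Nfkbib, 0.19 to 0.46 for Nfkbie, -0.17 to -0.049 for Nfkb1, -0.015 to 0.18 for Nfkbiz and -0.13 to 0.077 for Nfkbid. For the ratios they were 0.056 to 0.20 for Nfkb2 over Nfkb1, 0.035 to 0.28 for Nfkbia over Rela, -0.034 to 0.19 for Relb over Rela, -0.18 to 0.075 for Rel over Rela and -0.20 to 0.038 for Nfkbiz over Nfkbia. Nfkb2 and Relb were below 0 without K187R replicate 3, at -0.079 and -0.059. Nfkbie had an unadjusted p under 0.05 in limma without K187R replicate 4 (log2 fold change 0.46).

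Deviations from the group means correlated across genes between the replicates 1 at 0.59, the replicates 2 at 0.66, the replicates 3 at -0.09 and the replicates 4 at 0.63, so the pairing by number did not hold for all samples. With the replicate number as a block, limma called 0 genes, 2046 genes had an unadjusted p under 0.05 (12% of those tested), and Nfkbie was the 1 gene of the 10 among them (log2 fold change 0.33, adjusted p = 0.408 from limma).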
